A study of Mus musculus with 4 samples.

Results

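The Stat transcription factors examined here are Stat2, Stat6, Stat3, Stat5a and Stat5b, taken by gene symbol as 5 of the 14798 genes with a listed m6A peak in at least 1 genotype. Macrophages were derived from C57BL/6 bone marrow with M-CSF over 7 days and then kept for 24 h alongside MC38, colon carcinoma cells of the mouse. The cKO cells carried LysM-cre and Mettl3fl/fl, with Cre driven by the lysozyme M promoter of myeloid cells, and the WT cells carried the same floxed Mettl3 alleles without Cre. Mettl3 is the methyltransferase behind most N6-methyladenosine (m6A) of messenger RNA. Each genotype had 1 library of fragments bound by an m6A antibody (IP) and 1 library of unselected fragments (input), so no difference has a replicate check and the depth behind each value is unknown. Every p and adjusted p below is the authors' own and compares these libraries, not the genotypes.

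Stat proteins wait in the cytoplasm until a cytokine receptor and its Jak kinases phosphorylate them on a tyrosine. They then pair, enter the nucleus and switch on the genes of that cytokine. In macrophages Stat2 serves type I interferon together with Irf9, Stat6 serves interleukin-4 and interleukin-13, Stat3 serves interleukin-6 and interleukin-10, and the closely related Stat5a and Stat5b serve granulocyte-macrophage colony-stimulating factor. m6A in mammalian messenger RNA is known to gather around stop codons and in 3' UTRs, most often at the letters GGACT, and can shorten the life of a transcript.

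Mettl3 itself had 4 listed peaks in the cKO and 2 in the WT but 0 differential peaks, so no input level of it was held and its loss could not be checked. The cells expressed macrophage genes in both genotypes. Of 12 macrophage markers 10 had an input value, of which 6 were lower and 4 higher in the cKO, and none was at 0. Adgre1, the F4/80 antigen, had 162 FPKM (fragments per length of transcript and size of library) in the cKO and 220 FPKM in the WT, while Fcer1g, an Fc receptor subunit, had 374 FPKM in the cKO and 340 FPKM in the WT. The 10 sum to 4336 FPKM in the cKO and 5856 FPKM in the WT, and without Lyz2, the lysozyme gene, left out after its value was seen, the other 9 sum to 2355 FPKM in the cKO and 2463 FPKM in the WT. Of 6 mesenchymal markers 5 had a value, each higher in the cKO, with sums of 193 FPKM for the cKO and 107 FPKM for the WT. Of 6 epithelial and carcinoma markers only Krt19 had a value, at 10.8 FPKM in cKO and 7.05 FPKM in WT cells. Of 4 neutrophil markers only S100a8 did, at 13.7 FPKM in cKO and 12.3 FPKM in WT cells, and none of the 4 lymphoid and 4 dendritic markers did. FPKM values were held only for genes with a differential peak, so a marker without one says nothing of its level. The part of these marker differences in the Stat values was not tested. Bulk values cannot tell fewer cells of a type from less RNA per cell.

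All 5 genes carried m6A peaks in both genotypes, and each had its 3' UTR marked in both. The cKO list held 17 peaks in the 5 genes, 7 in 3' UTRs, 8 in other exonic sequence and 2 in 5' UTRs. The WT list held 14, of which 6 lay in 3' UTRs, 6 in exonic sequence, 1 in a 5' UTR and 1 in an intron. Over all genes with a listed peak, 73.7% had a 3' UTR peak in both lists, so this is common. Peaks were judged shared when they overlapped by at least 1 bp on the same strand. Of the 17 cKO peaks 13 overlapped a WT peak, where 71.3% of all cKO peaks did, and 12 of the 14 WT peaks overlapped a cKO peak, where 73.2% of all WT peaks did.

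**Figure D1:**
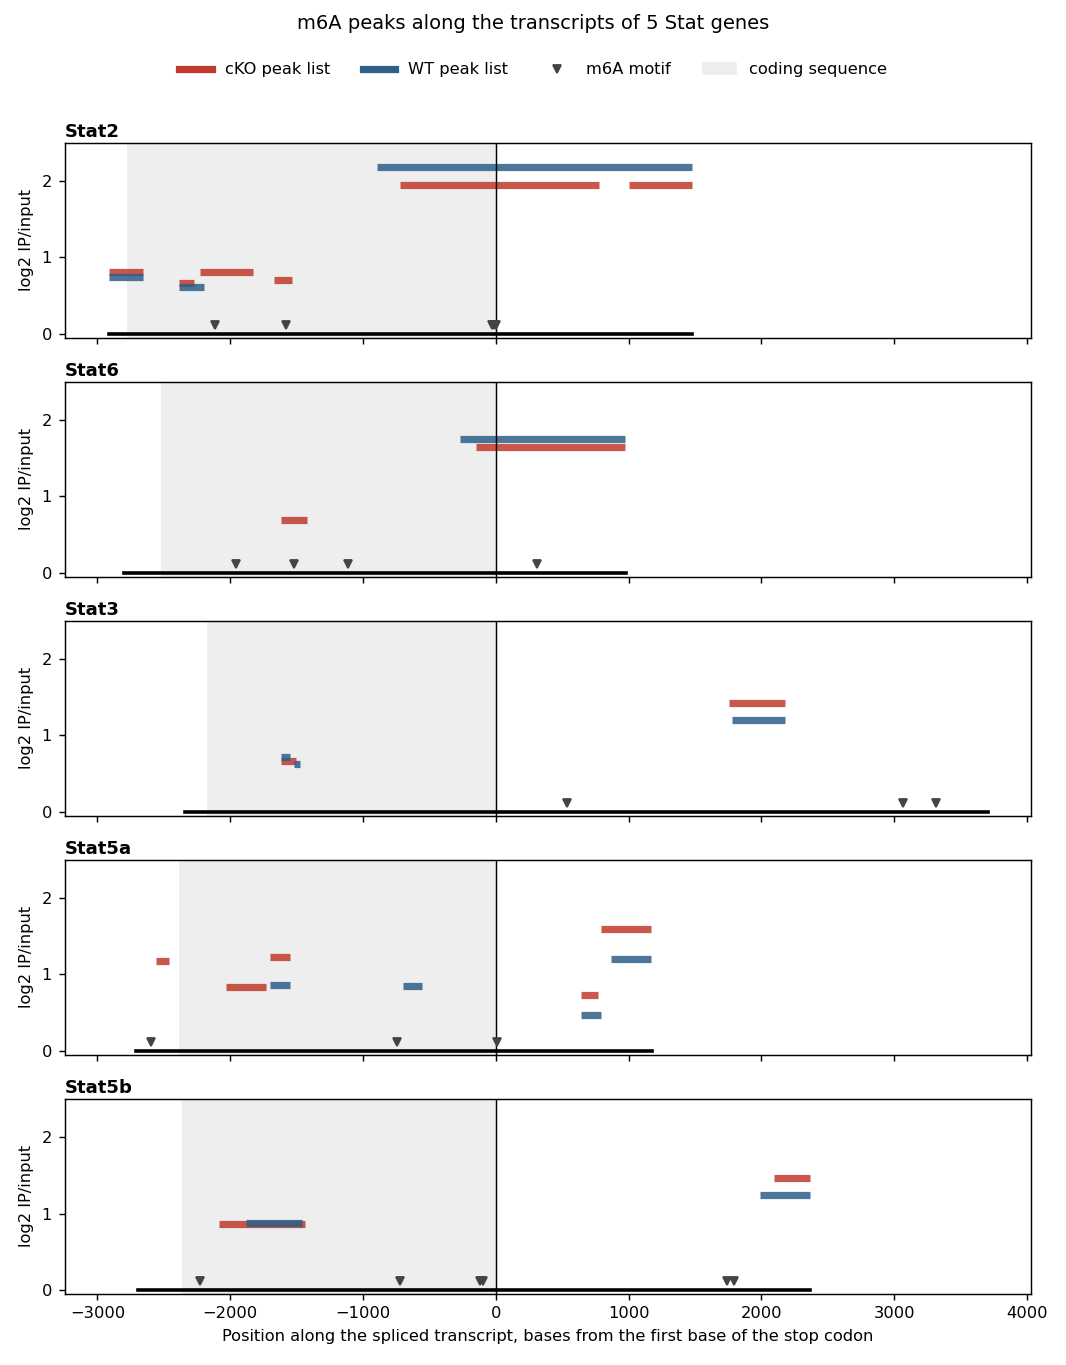
m6A peaks of the 5 Stat genes, cKO in red and WT in blue, placed along the spliced transcript in bases from the stop codon, with height as log2 IP over input; grey marks coding sequence and triangles mark the m6A motif GGACT; the intronic WT peak of Stat3, at a log2 of 1.40 its strongest in the WT, is not drawn. The strongest 3' UTR peaks of Stat2 and Stat6 cross the stop codon, while those of Stat3, Stat5a and Stat5b lie further into the 3' UTR.

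Stat2, the interferon factor, had the strongest peak of the family in both genotypes, and it covered the stop codon and the 3' UTR. The gene lies on chromosome 10 (mm10, plus strand), and its transcript runs over 128270576-128292849 with a 3' UTR of 1476 bases. In the cKO the signal was listed as separate peaks at chr10:128285667-128292148, with a log2 IP over input of 1.95, and at chr10:128292374-128292848, with 1.94. In the WT it was 1 peak at chr10:128285286-128292848 with a log2 IP over input of 2.18. After introns are removed the WT peak holds 2375 bases, of which 897 are coding. Peaks covered 84.7% of the 3' UTR in the cKO and 99.9% in the WT. In the cKO 76.3% of all 3' UTR peaks were weaker than the stronger Stat2 peak, and in the WT 80.8% were weaker than its single peak. Upstream the gene had weak peaks only. The cKO list held 3 coding peaks with log2 values of 0.66, 0.80 and 0.71, of which the last had no WT partner, and the WT list held 1 with 0.61.

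The letters GGACT stand 3 times within 30 bases of the Stat2 stop codon, inside the peak of both genotypes. These are shown because they sit where the strongest Stat peak crosses the end of the reading frame, with GGACT in capitals and each line 29 bases of the plus strand. The first starts 30 bases before the first base of the stop codon, the second 17 bases before it, and the third 3 bases after it, directly behind the tga. The first and second lines overlap.
Stat2, chr10:128291329-128291357: tttgatgcggatGGACTcttgggatggac
Stat2, chr10:128291342-128291370: gactcttgggatGGACTcttgataccttc
Stat2, chr10:128291362-128291390: gataccttctgaGGACTaggagctatgtt
A peak of this length usually holds the motif: it was present in 92.8% of the 753 WT 3' UTR peaks within 20% of its exonic length. The search used the sense strand of the GENCODE M21 transcript and 3 motifs: GGACT, its variant GGACA, and its variant GGACC. Matches of these motifs cannot start at the same base. The whole WT peak held 11 of these motifs, against a median of 9 in WT 3' UTR peaks of like length.

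Stat6, which relays interleukin-4 signals, had its main peak in the same kind of place. The gene is on chromosome 10 (plus strand, transcript 127642986-127660957), 609618 bases before Stat2. The 3' UTR peak lay at chr10:127659831-127660955 in the cKO, with a log2 IP over input of 1.65, and at chr10:127659631-127660955 in the WT, with 1.74. It started 148 bases before the stop codon in the cKO and 271 bases before it in the WT, and covered 99.8% of the 976-base 3' UTR in both. The peak held 1 GGACT, 308 bases after the stop codon. Of 3' UTR peaks of like length 76.0% in the cKO and 80.5% in the WT held GGACT. The site is shown for comparison with the cluster in Stat2.
Stat6, chr10:127660275-127660303: agccagggcctgGGACTcaacatacagaa
The cKO list alone held a weak coding peak of Stat6 at chr10:127652269-127653104, with a log2 IP over input of 0.68.

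Stat3, the interleukin-6 and interleukin-10 factor, had a short peak deep in a long 3' UTR. The gene is on chromosome 11 (minus strand, transcript 100885098-100939404), and the 3' UTR of the transcript named by the authors holds 3701 bases. The peak lay at chr11:100886623-100887047 in the cKO, with a log2 IP over input of 1.42, and at chr11:100886623-100887022 in the WT, with 1.20. It covered 11.5% of the 3' UTR in the cKO and 10.8% in the WT, and the WT peak began 1779 bases after the stop codon. Only 1 of the 14 Stat3 transcripts in GENCODE M21 contains it. Counted from the stop codon of another coding transcript, whose 3' UTR ends before the peak, the WT peak lies 1685 to 2084 bases downstream on the genome. The peak held no GGACT, which was present in 35.2% of the 4000 WT 3' UTR peaks of like length, and its only match was 1 GGACC. All 3 GGACT sites of the Stat3 3' UTR lay outside listed peaks. The GGACC site and the nearest GGACT site to the stop codon, both on the minus strand, show the contrast between a stretch inside the peak and one outside it.
Stat3 inside the peak, chr11:100886767-100886795: ggctggctggcgGGACCacctttgcctag
Stat3 outside any peak, chr11:100888249-100888277: acatagaagctaGGACTaagcccagaggt
In coding sequence Stat3 had 1 weak cKO peak with a log2 IP over input of 0.67, overlapping WT peaks of 0.62 and 0.72. The WT list also held an intronic Stat3 peak at chr11:100895469-100895593 with a log2 of 1.40, above its 3' UTR peak, at an adjusted p of 0.050 in the authors' deposited table, which leaves it on the threshold.

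Stat5a and Stat5b, which answer growth factor cytokines, had 3' UTR peaks near the transcript end, weaker than those of Stat2 and Stat6. They lie 8626 bases apart on chromosome 11, Stat5a on the plus strand (transcript 100859351-100885169) and Stat5b on the minus strand (100780731-100850724). The stronger Stat5a peak lay at chr11:100884787-100885161 in the cKO, with a log2 IP over input of 1.60, and at chr11:100884862-100885161 in the WT, with 1.21. A weaker one beside it had 0.73 in the cKO and 0.48 in the WT. Stat5b had its peak at chr11:100780731-100781005 in the cKO, with 1.46, and at chr11:100780731-100781105 in the WT, with 1.24. Each was higher in the cKO list, by 0.39 for the stronger Stat5a peak, 0.26 for the weaker and 0.22 for Stat5b. None of these is in the authors' deposited table of differential peaks, which lists a p below 0.05 only.

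Stat5a also has GGACT 8 bases after the first base of its stop codon, as Stat2 has at 3 bases, but no peak was listed there in either genotype. It is printed for that contrast.
Stat5a, chr11:100883990-100884018: gtcctgaacgctGGACTccatgcttctct
Neither of the stronger 3' UTR peaks of Stat5a and Stat5b held GGACT in either genotype. Most 3' UTR peaks of like length did not hold it either. For Stat5a 32.0% of those in the cKO and 25.5% in the WT did, and for Stat5b 22.7% and 33.5%. The 2 GGACT sites in the Stat5b 3' UTR, 1743 and 1795 bases after the stop codon, lay outside its peaks. No match says only that these letters are not in the peak.

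The last bases of Stat5a and Stat3 overlap on opposite strands over chr11:100885098-100885169, which is 72 bases, and 64 of them lie in the stronger Stat5a peak of both genotypes. The libraries keep strand, but whether counting used it is not given in the sources used here, so reads of the Stat3 end in that stretch cannot be told apart from those of Stat5a.

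Every listed coding peak of Stat5a and Stat5b shared sequence with the other gene, to very different extents. How reads from the shared stretches were assigned is not known. The Stat5a peak at chr11:100874176-100874600 in the cKO (log2 1.22) and chr11:100874176-100874550 in the WT (log2 0.86) had all of its 103 windows of 50 bases identical in Stat5b. The coding peak of Stat5b, at a log2 of 0.86 in the cKO and 0.87 in the WT, shared 59.1% and 84.8% of such windows with Stat5a. A cKO peak of Stat5a at chr11:100863194-100874100 (log2 0.83) shared 43.4%, and a WT peak at chr11:100879975-100880514 (log2 0.85) shared 9.68%. In contrast, no 50-base window of any 3' UTR peak of the 5 genes occurred in a transcript of another gene. A 5' UTR peak of Stat5a (log2 1.17) was listed in the cKO alone.

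The next comparison asks whether m6A enrichment of these transcripts differed between cKO and WT macrophages. It was lower in the cKO at the long peaks of Stat2 and Stat6, which cross the stop codon and reach far into the 3' UTR. At the 3' UTR peak of Stat3 it was higher, and each difference was small. In the authors' deposited table the Stat2 peak at chr10:128285436-128292198 stood at a log2 enrichment of 1.89 in the cKO and 2.20 in the WT, a difference of -0.31 (adjusted p = 0.00469). There the Stat6 peak at chr10:127659706-127660955 had 1.46 in the cKO and 1.74 in the WT, a difference of -0.28 (adjusted p = 0.00181). In the same deposited table the Stat3 peak at chr11:100886623-100887022 had 1.41 in the cKO and 1.17 in the WT, a difference of 0.24 that does not pass after adjustment (adjusted p = 0.0831).

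Of the 5 genes 3 thus had a differential peak, where 49.9% of all genes with a listed peak did. A lower one was found in 2, against 28.9% of all genes, and a higher one in 1, against 28.3%. With the authors' deposited table held to an adjusted p of 0.05, lower peaks were left in 2 of the 5, against 18.0% of all genes, and higher ones in 0 of the 5, against 15.3%. With 5 genes these counts do not set the family apart. The differences were also small for that table: 15.5% of its 3' UTR peaks had a smaller absolute difference than Stat2, 11.3% than Stat6 and 7.73% than Stat3. That table lists a p below 0.05 only, and these shares were not matched for peak strength or input level.

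**Figure D2:**
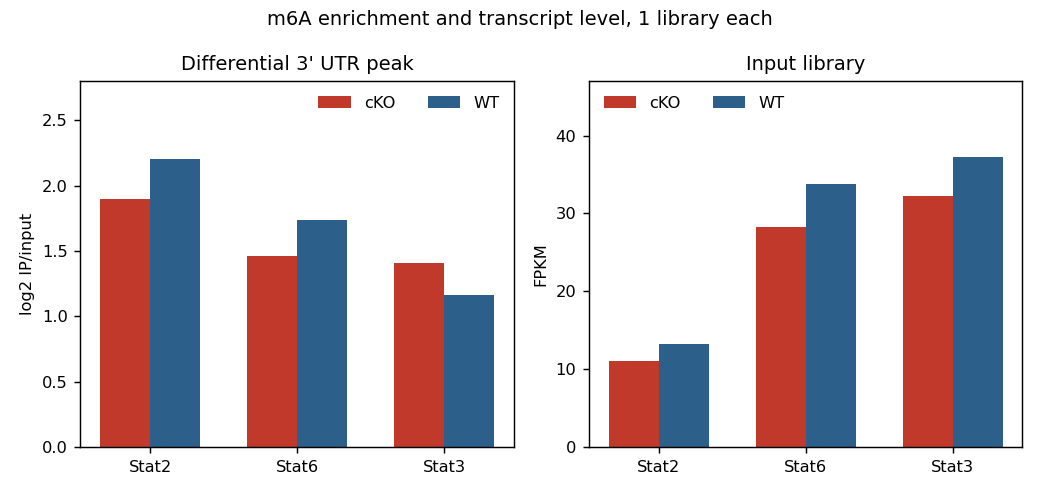
Left, log2 IP over input at the differential 3' UTR peak of Stat2, Stat6 and Stat3 from the authors' deposited table, cKO in red and WT in blue; right, input FPKM of the same genes. Each bar is 1 value without replicates: enrichment is lower in the cKO for Stat2 and Stat6 and higher for Stat3, while all 3 inputs are lower in the cKO.

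The size of the Stat6 difference was not the same in the peak lists and in the authors' deposited table, and why was not tested. In the peak lists, where the cKO peak starts later than the WT peak, the difference was -0.10, while the authors' deposited table, which uses 1 common span, gives -0.28. For Stat3 the list difference was 0.22, close to the 0.24 of the authors' table. For Stat2 the stronger of the cKO peaks lay 0.23 below the WT peak.

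Read against matched 3' UTR peaks of like strength, most of the differences taken from the peak lists were ordinary. Like strength means a mean log2 within 0.25 of that of the Stat peak. Stat3, with a mean of 1.31 and a difference of 0.22, was set against 4842 such peaks, whose median difference was 0.18 (quartiles -0.03 and 0.38). Stat5b, with a mean of 1.35 and a difference of 0.22, had almost the same neighbours, of which 71.5% were higher in the cKO. The stronger Stat5a peak, at 0.39, lay just above the upper quartile of 0.38 of its 4747 neighbours. Stat2, with a mean of 2.07 and a difference of -0.23, lay between the quartiles of -0.31 and 0.29 of 1525 peaks, of which 41.6% were higher in the cKO. The Stat2 value sets the stronger of its cKO peaks against its single WT peak, so it is not a one-to-one match. Stat6, with a mean of 1.69, stood at -0.10, where the quartiles of 3121 peaks were -0.15 and 0.40 and 61.5% were higher in the cKO. Its difference of -0.28 at the common span of the authors' deposited table is below that lower quartile, though the neighbours are list values. So 3' UTR peaks of the strength of Stat3, Stat5a and Stat5b were mostly higher in the cKO, and those of the strength of Stat2 mostly lower.

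**Figure D3:**
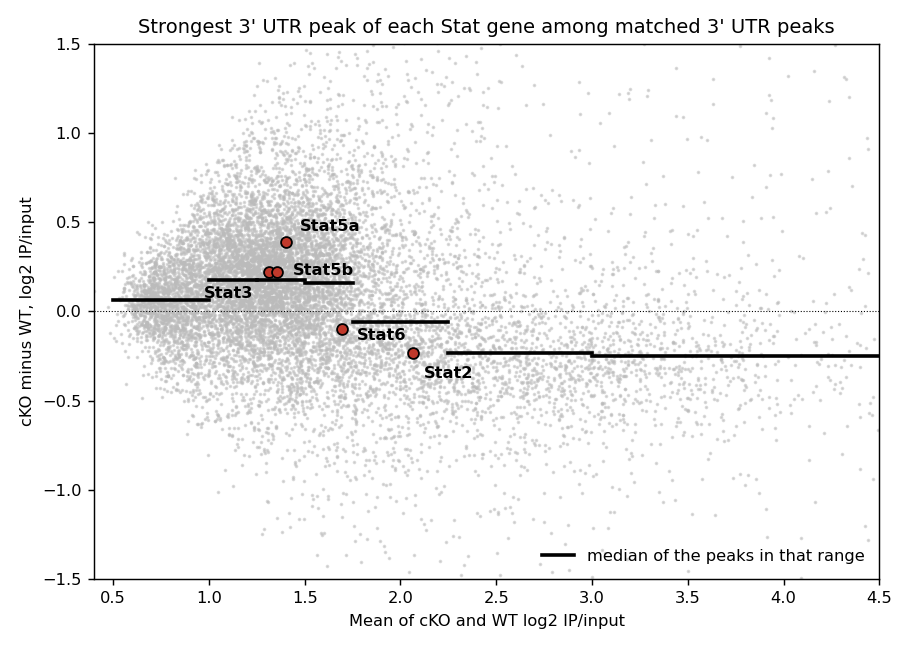
Difference in log2 IP over input, cKO minus WT, against its mean, for the strongest 3' UTR peak of each Stat gene (red) and for 12538 matched 3' UTR peaks (grey); 293 grey peaks lie outside the axes, and black bars are medians of ranges of the mean. Stat3, Stat5a and Stat5b sit above 0 and Stat6 and Stat2 below it, near the bars, with Stat6 the furthest below its bar. The Stat2 point sets the stronger of its cKO peaks against its single WT peak, so it is not a one-to-one match.

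The same reading holds in the authors' deposited table. Among its 3' UTR peaks within 0.25 of the Stat2 mean, 69.1% of 807 were lower in the cKO, as Stat2 was. Within 0.25 of the Stat3 mean, 22.6% of 2098 were lower, so most were higher, as Stat3 was. Within 0.25 of the Stat6 mean, 35.7% of 1545 were lower, so Stat6 belonged to the minority. How IP was scaled to input is not given in the sources used here, so a cKO value above the WT value is not a measure of more methylation. Whether a loss of m6A common to all transcripts of the cKO would show in these values is not known, and each difference is read relative to the other peaks.

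Across all Stat peaks that matched one to one, 6 of 8 were higher in the cKO, where 54.8% of all matched peaks were. The median difference was 0.22, against 0.04 over 19331 matched peaks, and it was 0.14 over 10 Stat peaks when the overlap had to cover 50% of both spans. In 3' UTRs 4 of 5 were higher, where 57.9% of all matched 3' UTR peaks were. The strong Stat2 peak is not among the 8, since it was listed as 1 peak in the WT and as separate peaks in the cKO. With the overlap of 50% of both spans it was paired with the stronger cKO peak, so it is among the 10. The 8 included the 5' UTR peak of Stat2, at 0.80 in the cKO and 0.74 in the WT, and the shared coding peak of Stat5a, which differed by 0.36.

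The input libraries ask whether the transcript levels differed. All 3 Stat genes with an input value were slightly lower in the cKO. Stat3 had 32.3 FPKM in the cKO and 37.2 FPKM in the WT. Stat6 had 28.3 FPKM in the cKO and 33.8 FPKM in the WT. Stat2 was the lowest of the 3 in both, with 11.1 FPKM in the cKO and 13.3 FPKM in the WT. The order Stat3, Stat6, Stat2 was the same in both genotypes, and whether Stat3 and Stat6 differ beyond the spread of cultures is not known. On the log2(FPKM + 1) scale, which understates changes of low genes, the differences were -0.20 for Stat3, -0.25 for Stat6 and -0.24 for Stat2. The background was the 6079 genes with a differential peak and a mean of at least 1 FPKM. Their median was -0.02, with 54.2% of them lower by any amount. Of those genes 17.1% had a lower difference than Stat3, 12.3% than Stat6 and 12.7% than Stat2. None of the 3 was 1.5-fold lower, which 1.66% of genes were, and the authors' deposited table gives each a q of 1. Input levels of Stat5a and Stat5b, which have no differential peak, were not analysed here.

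Lower input and lower enrichment did not go together in all 3 genes. Stat2 and Stat6 were lower in both measures, while Stat3 was lower in input and higher in enrichment. Input is the denominator of the enrichment, and its part in these values was not tested.

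Genes whose 4 values, the input level and the peak enrichment in each genotype, came closest to each Stat gene were found among 6743 genes by Euclidean distance on log2 scales. For Stat2 they were Znfx1, Lyst and Elk3, at distances of 0.20, 0.20 and 0.21, where the median gene was 2.66 away. For Stat6 they were Atf5, Rnf19b and Dynll2, at 0.16, 0.23 and 0.23, with a median of 3.78. For Stat3 they were Psma5, Gnb2 and Tnfrsf26, at 0.09, 0.14 and 0.18, with a median of 4.02. The peaks compared were not always in the same region. Those of Znfx1 and Lyst were exonic and that of Atf5 was in a 5' UTR, while the rest, like the Stat peaks, were in 3' UTRs. With 1 library per group this is a likeness of levels only.

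Around the Stat genes, the JAK-STAT pathway had more lower than higher m6A peaks in the cKO. The list of 42 further genes held receptors, kinases, inhibitors and a few partners, and 41 had a listed peak. A differential peak in the authors' deposited table was found for 32 of them, where 49.9% of all genes with a listed peak had one. They held 17 peaks higher and 36 lower in the cKO, where 51.1% of all differential peaks were lower, and had a median difference of -0.33 against -0.18 over all 10355 differential peaks. Held to an adjusted p of 0.05 in that deposited table of the authors, 24 of the 42 genes had a lower peak, against 18.0% of all genes, and 8 a higher one, against 15.3%. Kinase genes had 1 higher and 3 lower peaks, receptor genes 9 and 17, and inhibitor genes 6 and 15, all to be read against the same 51.1%. In the input 18 of 31 of these genes were lower in cKO cells (median -0.05), and 0 were past 1.5-fold. Of the 6079 background genes with a differential peak, 54.2% were lower. The levels and peak strengths of these genes were not matched to those of all genes.

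**Figure D4:**
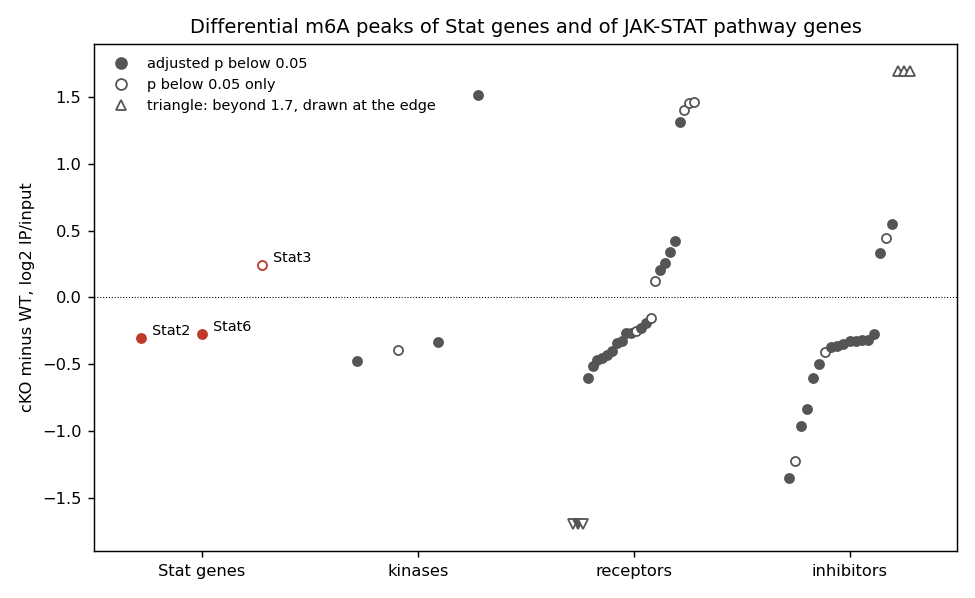
Difference in log2 IP over input, cKO minus WT, of each differential peak in the Stat genes (red) and in pathway genes by role (grey), from the authors' deposited table; filled points have an adjusted p below 0.05, and 6 peaks beyond 1.7 are drawn at the edge as triangles. Stat2 and Stat6 lie among the many peaks of receptors and inhibitors between 0 and -0.6.

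Receptors that work through the Stat proteins described here had some of the smallest adjusted p of the list in the authors' deposited table. Those named below came first by adjusted p. At an adjusted p below 0.05 all receptor genes of the list together had 13 lower and 5 higher peaks. Of all differential peaks that passed this threshold 54.3% were lower, and peak strength was not matched. Ifnar2, a chain of the type I interferon receptor that signals through Stat2, had a 3' UTR peak at a log2 of 3.47 in the cKO and 4.07 in the WT, a difference of -0.61 (adjusted p = 1.59e-25), with inputs of 63.1 FPKM in the cKO and 62.1 FPKM in the WT. Il13ra1, a receptor chain for interleukin-13 that leads to Stat6, had 2 differential 3' UTR peaks there, 1 with a difference of -0.51 (adjusted p = 8.27e-21) and 1 with a difference of 0.43 (adjusted p = 0.0160). Csf2rb, the receptor chain through which granulocyte-macrophage colony-stimulating factor reaches Stat5, had an exonic peak at 0.66 in the cKO and 1.11 in the WT in the authors' deposited table (adjusted p = 5.65e-52). Csf2rb also had 3' UTR peaks there with differences of -0.33 and 0.12. Its near-identical neighbour Csf2rb2 had a 3' UTR peak at 0.61 in the cKO and 1.08 in the WT and another at 0.72 and 1.06. Reads may be shared between these genes. The other genes named by the rule, Socs3, an inhibitor of Stat3 signalling, and the kinase gene Jak1, had 3' UTR differences of -0.28 and -0.48 in the same deposited table of the authors.

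Genes known from other work as targets of Stat proteins had peaks that differed in both directions. Of 32 such genes 31 had a listed peak and 19 a differential one in the authors' deposited table, where 49.9% of all genes with a listed peak had one. They held 10 peaks higher and 15 lower in the cKO, where 51.1% of all differential peaks were lower, and their median difference was -0.22, against -0.18 over all. Of these peaks 7 higher and 12 lower ones passed an adjusted p of 0.05 in the authors' deposited table, where 54.3% of all peaks that passed were lower. Of the named ones, Mcl1, which protects cells from apoptosis, had 3' UTR peaks at -0.18 and 0.29. Also in 3' UTRs were the interferon-induced Ifit2 at -0.55, the cytokine gene Osm at -0.50, Junb at -0.18 and again Socs3. The peak of Il4i1, at -0.30, was in the 5' UTR. In the input 12 of 18 targets with a mean of at least 1 FPKM were lower in cKO cells (median -0.07). Of the same 6079 background genes 54.2% were lower (median -0.02). Irf1, an interferon-driven transcription factor gene chosen after its values were seen, was the only one past 1.5-fold, at 21.4 FPKM in the cKO and 47.7 FPKM in the WT. In that direction 1.66% of the background genes were past 1.5-fold.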

How the data were processed

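The series holds 4 libraries, 1 per group, grouped by their titles. Reads were processed on mm10, and edgeR, StringTie, ChIPseeker, HOMER, HISAT2 and fastp are named without role or order, per the submitters' processing notes. The peak caller is not given in the sources used here. Per the file headers, the authors deposited a log2 fold of IP over input per peak and genotype, a table of differential peaks with cKO, WT and their difference, each with a p-value and its adjusted form. The authors' gene table gives the FPKM of the input libraries. Of 108 genes below 0.1 FPKM in both, at most 2 shared a ratio, so no steps of whole reads were seen.

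From these, starts were moved from 0-based to 1-based, peaks were matched by overlap on the same strand, and peaks were placed on GENCODE M21 transcripts (Python 3.11.15, pandas 2.3.3, numpy 2.4.6). The matching was tested on simulated data. The differential columns followed the peak lists at 1444 identical cKO and 1619 identical WT positions (r across peaks of 1.00 each). No further p-value was computed. The members and lists were chosen with earlier results of these data known. Named genes were the 5 members, up to 6 genes per list in order of adjusted p below 0.05, and the 3 genes nearest to each member. Alternatives tried were stricter thresholds, an overlap of 50% of both spans, another pseudocount, centring and no filter on low values.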

Additional observations from a re-analysis of the deposited data

How the results depend on the processing

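No paired analysis was possible because each group has 1 library, and no library could be left out. Requiring a log2 IP over input of at least 1 left 8 Stat peaks in the cKO and 6 in the WT. Requiring an adjusted p below 0.05 left 0 Stat peaks higher in the cKO and kept both lower ones, while an absolute log2 difference of at least 1 left 0 higher and 0 lower. The median difference at matched Stat peaks was 0.18 after centring on all matched peaks and 0.14, over 10 peaks, when the overlap had to cover 50% of both spans. With a pseudocount of 0.1 the input differences were -0.26 for Stat2, -0.26 for Stat6 and -0.21 for Stat3. Centred on the median of the 6079 background genes they were -0.22, -0.23 and -0.18. Of the 6079 background genes 190 lay past 1.5-fold in the input, and with a pseudocount of 0.1 the count was 297. The stricter overlap added 2 Stat2 pairs to the matched Stat peaks. These were the strong 3' UTR peak, at 1.95 in the cKO and 2.18 in the WT, and a coding peak at 0.66 and 0.61. Why the other values moved was not tested beyond what each threshold removes by construction. The other 5 values tried, the Stat peaks at an adjusted p below 0.05 in each list, the shared peaks of each list at the stricter overlap and the genes past 1.5-fold with no filter, stayed within 1.5 times, as did the input differences of the 3 Stat genes above. The overlap of exonic blocks was not run, since the tables give no blocks. Read depth limits every value by an amount that is not known.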
